A study of Mus musculus with 40 samples.

Results

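Mouse oocytes matured in culture inside their cumulus cells were compared with oocytes matured in the animal, in total RNA. The comparison took every gene of the deposited total RNA table of these groups, 10981 genes, and 8 of the series' 40 libraries. The COC group holds 4 libraries of cumulus-oocyte complexes cultured to maturity. The IVO group holds 4 libraries of oocytes matured in vivo. The IVM group holds 4 total RNA libraries of oocytes that were denuded and matured in vitro, and it is used only to place single genes. Polysomal RNA, the fraction carried by ribosomes, was sequenced separately for COC and IVO in 8 further libraries. The labels give neither strain, nor age, nor hormone treatment of the animals. They do not say whether cumulus cells were taken off before lysis, nor whether replicates came from separate animals. The p-values therefore measure the spread between these libraries, which may be technical.

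A fully grown mouse oocyte is close to silent in transcription, and maturation runs on mRNA that it stored during growth. Cumulus cells surround the oocyte, reach it with projections that end in gap junctions, and pass metabolites and signals that hold or release meiotic arrest. After the ovulatory signal the cumulus cells make a hyaluronan matrix, and the oocyte proceeds to metaphase of the second meiotic division. Removing the cumulus cells before culture takes these contacts away, and culturing the complex keeps them in a dish.

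Values are RPKM, reads per kilobase of gene with library size divided out, as deposited. The table lists a gene only if it reaches 0.2 RPKM in all 8 libraries, which hides any gene that is off in COC or in IVO. Read depth, recovered from the steps between low values, was 52.7 to 63.2 M reads in COC and 49.9 to 56.3 M in IVO libraries. Fold changes are COC minus IVO on the log2(RPKM + 1) scale with standard errors from limma, and for weakly expressed genes this scale makes a change look smaller than the RPKM ratio. Levels per group are mean ± SD with n = 4. In bulk RNA, fewer cells of a type and less RNA per cell cannot be told apart.

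The libraries were of oocytes by their markers, and alike. All 22 oocyte markers were listed, with a summed level of 8721 to 9463 RPKM in COC and 8815 to 9850 RPKM in IVO libraries. Spearman correlations between libraries ran from 0.983 to 0.996. IVO replicates 1 and 3 stood apart from the other libraries along the first principal component, which held 59.0% of the variance. COC replicate 3 lay part of the way towards them. Values without IVO replicates 1 and 3 stand beside list counts and beside many of the genes they move.

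The sequences that follow are the 130 bases before the annotated start of the called gene, Flna, and of 4 of the 11 histone genes whose groups did not overlap. They let a reader see what kind of promoter stands before each gene. They were read from RefSeq on mouse build GRCm38.p6, an older build than the authors' GRCm39, and they run 5′ to 3′ on the gene's strand. Flna lies on the minus strand of chromosome X, H4c6 on the minus strand of chromosome 13, and the other 3 on the plus strand of chromosome 13. The regions are chrX:74246535-74246664 for Flna, chr13:21716282-21716411 for H2ac13 and chr13:22043068-22043197 for H2bc11. Those of H4c6 and H4c8 are chr13:23551669-23551798 and chr13:23530914-23531043. Capitals mark matches on either strand to a CCAAT box (CCAAT) or a GC box (GGGCGG).
Flna: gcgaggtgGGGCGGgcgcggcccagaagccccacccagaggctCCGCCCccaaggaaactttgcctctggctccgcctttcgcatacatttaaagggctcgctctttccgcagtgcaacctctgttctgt
H2ac13: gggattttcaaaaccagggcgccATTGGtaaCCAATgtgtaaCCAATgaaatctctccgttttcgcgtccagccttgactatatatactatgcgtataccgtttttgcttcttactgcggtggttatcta
H2bc11: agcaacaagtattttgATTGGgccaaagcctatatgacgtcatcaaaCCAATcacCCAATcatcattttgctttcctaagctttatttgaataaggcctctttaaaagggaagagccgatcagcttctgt
H4c6: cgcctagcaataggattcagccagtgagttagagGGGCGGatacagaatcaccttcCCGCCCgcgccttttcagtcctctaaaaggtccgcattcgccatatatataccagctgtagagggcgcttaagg
H4c8: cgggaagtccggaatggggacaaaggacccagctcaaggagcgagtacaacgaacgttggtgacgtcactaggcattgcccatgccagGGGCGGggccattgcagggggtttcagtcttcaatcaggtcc
H2ac13 and H2bc11 each hold 3 CCAAT boxes, Flna and H4c6 each hold 2 GC boxes, and H4c8 holds 1. Over 32843 RefSeq windows of the same length, 22.4% hold a CCAAT box and 27.3% a GC box. The exact letters TATAAA of a TATA box stand in 6.83% of windows and an octamer (ATTTGCAT) in 0.868%, and neither string is in these 5 windows. Variants of the TATA box were not searched, and the windows of H2ac13 and H4c6 do hold the letters tatata. A match is a description of the letters only.

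Total RNA of the groups differed little. The median log2 fold change of all genes was 0.02, 92.7% of genes lay within 0.25 of 0, and 11 genes lay beyond 1 in either direction. By the ratio of mean RPKM, 27 genes differed more than 2-fold, 20 of them higher in COC. At a Benjamini-Hochberg adjusted limma p under 0.05, 1 gene was higher in COC (0.00911% of genes tested) and 0 genes were lower (0.0%). At an unadjusted limma p under 0.05 there were 452 higher (4.12%) and 325 lower (2.96%). Single libraries moved these unadjusted counts. They were 249 and 167 without COC replicate 4, 280 and 214 without IVO replicate 1, 284 and 194 without IVO replicate 3, and 354 and 215 without COC replicate 2. They were 726 and 540 without IVO replicate 2 and 734 and 460 without IVO replicate 4. They were 362 (3.3%) and 402 (3.66%) without IVO replicates 1 and 3 together. The 4 COC libraries all lay above the 4 IVO libraries in 247 genes (2.25%) and all below them in 236 (2.15%). On simulated data of this design, limma recovered 76 of 100 genes at a 1.5-fold change and 93 of 100 at 2-fold, with 6 false calls. These changes were set on the log2(RPKM + 1) scale. The simulated noise was independent for each gene and library, without the split of IVO replicates 1 and 3. The recovery in the real data cannot be read from it.

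**Figure D1:**
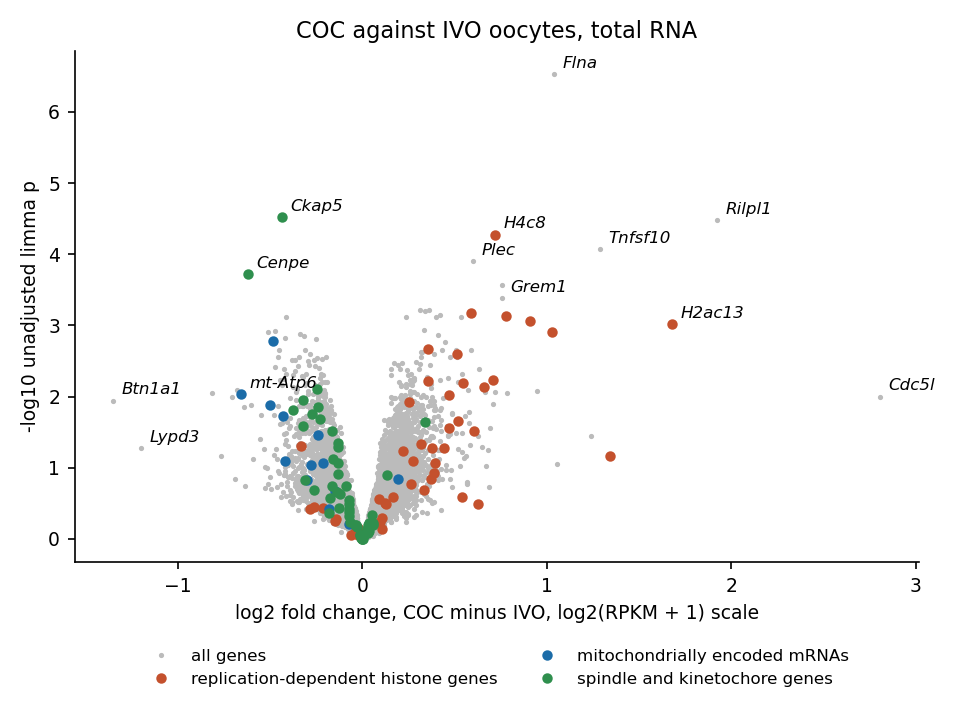
Each dot is a gene of the total RNA table; the x axis is the log2 fold change of COC minus IVO on the log2(RPKM + 1) scale and the y axis is minus log10 of the unadjusted limma p. Flna stands highest at a log2 fold change of 1.04, histone genes lie mostly to the right of 0, and mitochondrially encoded mRNAs and spindle genes mostly to the left.

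The 1 gene that rose was Flna (ENSMUSG00000031328), which encodes filamin A, a protein that cross-links actin filaments and ties them to membrane receptors. Flna stood at 2.94, 3.50, 2.88 and 2.47 RPKM in COC replicates 1 to 4. In IVO replicates 1 to 4 it stood at 0.890, 0.965, 0.857 and 0.944 RPKM. Every COC library lay above every IVO library, and IVO replicates 1 and 3 lay slightly below replicates 2 and 4. The means were 2.95 ± 0.424 and 0.914 ± 0.0493 RPKM, a 3.22-fold difference, or 1.04 ± 0.08 as log2 fold change (limma adjusted p = 0.00323). By the recovered depth, the lowest IVO value stands for about 402 reads and the lowest COC value for about 1319. Its neighbours on the X chromosome, Tktl1 and Emd, had log2 fold changes of -0.09 and -0.07. The call remained when any 1 library was left out, with an adjusted p of at most 0.0266. Without IVO replicates 1 and 3 together, Flna kept a log2 fold change of 1.01 with an adjusted p of 0.0503. Without COC replicate 3 as well, the adjusted p was 0.112.

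Flna also differed between the cultured groups. Denuded IVM oocytes had 1.14 ± 0.0953 RPKM, and COC was higher by 0.88 ± 0.08 on the log2 scale (limma adjusted p = 0.00388). That test uses no IVO library but the same 4 COC libraries, so it is not independent of the first. Of 11152 genes in that comparison Flna was the 1 called higher in COC (0.00897%), and 4 were called lower (0.0359%). At an unadjusted limma p under 0.05 there were 91 higher (0.816%) and 539 lower (4.83%). On polysomes Flna stood at 2.74, 2.50, 1.29 and 0.31 RPKM in COC and at 0.29, 1.06, 1.17 and 0.40 RPKM in IVO, so the groups overlapped. The polysomal log2 fold change was 0.57, and its difference from the total RNA change was -0.47 (limma interaction adjusted p = 0.884). Over all 7512 genes listed in both fractions, this interaction called 0 genes higher and 0 lower (both 0.0%), with 317 higher (4.22%) and 67 lower (0.892%) at an unadjusted limma p under 0.05. The labels give total and polysomal libraries the same replicate codes, and this fit treated the libraries as independent, without that pairing.

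Other genes of the actin cytoskeleton did not pass the adjusted limma test, though the authors' deposited p-values, adjusted here, called Plec (7.3e-05) and Tes (0.0415). The list of actin and membrane linker genes had 39 of 42 members listed, with a median log2 fold change of -0.02 against 0.02 over all genes. Flna was its 1 member called. At an unadjusted limma p under 0.05 the list had 1 member higher (2.56% against 4.12% of all genes) and 2 lower (5.13% against 2.96%). Without IVO replicates 1 and 3 it had 4 higher (10.3% against 3.3% of all genes) and 4 lower (10.3% against 3.66%). Non-muscle myosin Myh9 stood at 51.0 ± 1.28 in COC and 63.2 ± 8.93 in IVO, and beta-actin Actb at 36.0 ± 1.64 and 40.2 ± 1.29 RPKM. Plec, the cytolinker plectin, stood at 3.05, 3.31, 3.41 and 2.85 RPKM in COC and at 2.20, 1.37, 1.70 and 1.74 RPKM in IVO, without overlap. Its log2 fold change was 0.60 ± 0.10 with a limma adjusted p of 0.229, and IVM oocytes held 2.04 ± 0.0586 RPKM. Plec shares exon sequence with Parp10 on the same strand, so its reads may not all be its own. Tes, the focal adhesion protein testin, stood at 1.09 to 2.28 RPKM in COC and 0.610 to 0.958 RPKM in IVO. IVM oocytes lay near IVO oocytes for Tes, at 0.763 ± 0.124 RPKM.

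**Figure D2:**
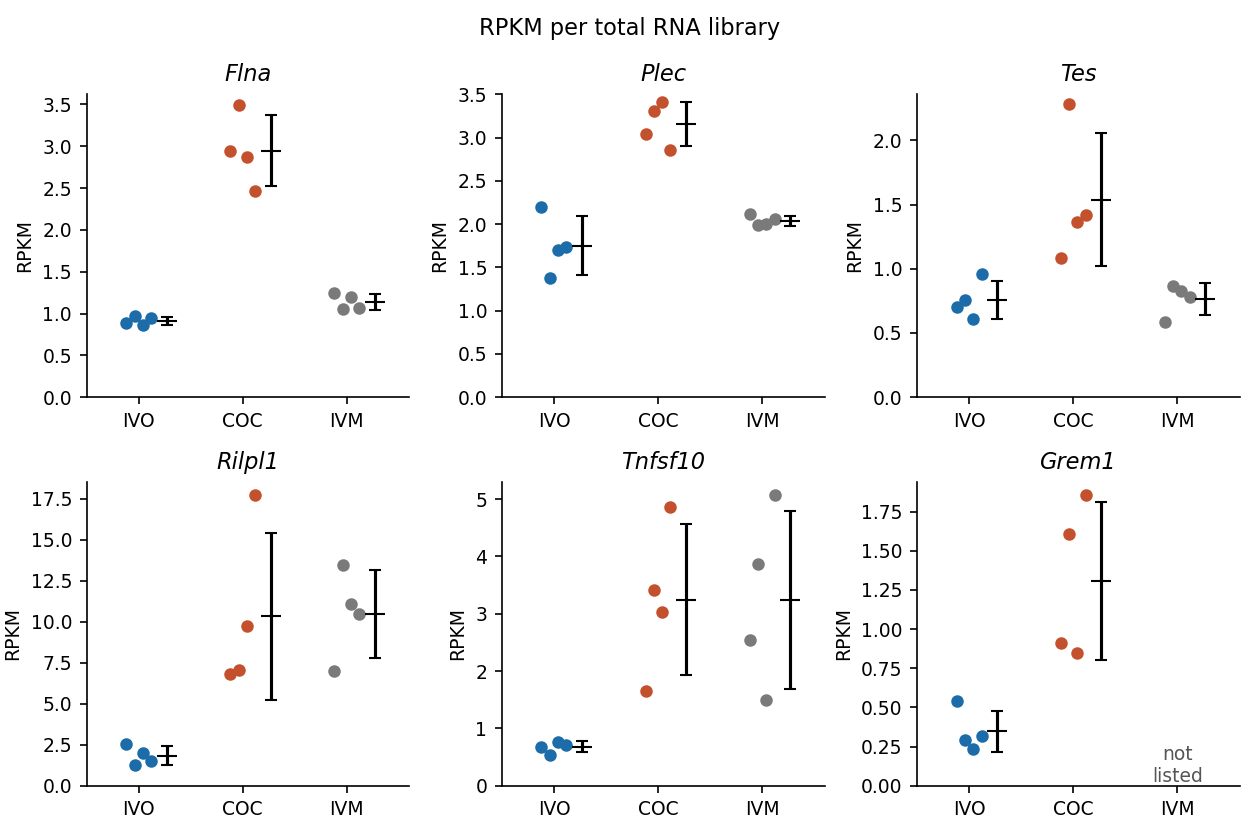
RPKM in each total RNA library for 6 genes in IVO, COC and IVM oocytes; dots are libraries, and the bar beside them is the mean with its SD over 4 libraries. Every COC library of Flna, Plec and Tes lies above every IVO and IVM library, the COC and IVM libraries of Rilpl1 and Tnfsf10 lie above the IVO libraries, and Grem1 is not listed in the table with IVM.

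Most markers that define cumulus cells were not listed. Of 26 cumulus and granulosa markers 6 were listed, with a summed level of 141 to 159 RPKM in COC and 147 to 175 RPKM in IVO libraries. Those 6 were Serpine2, Bmpr1b, Esr2, Nr5a2, Cyp19a1 and Krt8, and their median log2 fold change was -0.02 with 0 at an unadjusted limma p under 0.05 in either direction. The receptor Fshr, the transcription factor Foxl2, the hormone genes Amh and Inha and the gap junction gene Gja1 were among the 20 that did not reach the listing minimum in all 8 libraries. A gene that is present in COC and low in any IVO library is also unlisted. The unlisted markers therefore cannot show whether the COC libraries hold cumulus RNA. Of 20 cumulus expansion genes 2 were listed, Grem1 and Runx2, and the matrix genes Has2, Ptx3 and Tnfaip6 were not. Grem1, a secreted BMP antagonist of expanding cumulus cells, stood at 0.913, 1.61, 0.846 and 1.86 RPKM in COC and at 0.539, 0.293, 0.237 and 0.317 RPKM in IVO. The groups did not overlap, the means differed 3.77-fold, and the log2 fold change was 0.76 ± 0.14 (limma adjusted p = 0.423). Grem1 is not in the table that holds IVM. Whether remaining cumulus RNA has a part in the Flna or Grem1 difference was not tested.

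Replication-dependent histone genes lay higher in COC, with the highest median of any list that has more than 2 listed members. These genes encode the histones that package newly made DNA, and their mRNAs commonly end in a stem-loop in place of a poly(A) tail. All 47 members were listed, the median log2 fold change was 0.35 against 0.02 over all genes, and 37 were positive. At an unadjusted limma p under 0.05, 18 were higher (38.3% against 4.12% of all genes) and 1 lower, and 11 had no overlap between groups, all higher (23.4% against 2.25% of all genes). None passed the adjusted limma test, and the authors' deposited p-values, adjusted here, called 7 of them higher. Their summed level was 4243 to 4458 RPKM in COC and 3236 to 3910 RPKM in IVO libraries.

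The histone classes differed in their medians. The median log2 fold change was 0.52 over 9 H2B genes, 0.52 over 11 H4 genes, 0.27 over 14 H2A genes, 0.23 over 4 linker H1 genes and 0.09 over 9 H3 genes. H2ac13, an H2A gene, stood at 17.6, 19.4, 10.4 and 11.9 RPKM in COC and at 2.14, 5.01, 1.99 and 8.4 RPKM in IVO. Its log2 fold change was 1.68 ± 0.36 (limma adjusted p = 0.478), and 1.03 ± 0.26 without IVO replicates 1 and 3. H2bc11, an H2B gene, stood at 54.3 ± 6.50 in COC and 27.4 ± 10.2 RPKM in IVO, and its IVO replicates 1 and 3, at 19.8 and 17.5, lay below replicates 2 and 4, at 34.0 and 38.1. The log2 fold change of H2bc11 was 1.03 ± 0.23 with all libraries and 0.57 ± 0.11 without replicates 1 and 3. H4c8, an H4 gene, stood at 37.8 ± 3.98 against 22.7 ± 3.12 RPKM, a log2 fold change of 0.72 ± 0.10 (adjusted p = 0.146). H4c6 stood at 5.21 ± 1.37 against 2.31 ± 0.708 and H4c2 at 38.5 ± 5.26 against 22.3 ± 4.99 RPKM. H1f1, a linker histone gene at a far higher level, stood at 920 ± 33.0 against 675 ± 143 RPKM. IVM oocytes also held 15.1 ± 8.44 RPKM of H2ac13 and 35.9 ± 10.6 RPKM of H4c8. Histone genes of a class are near-identical copies, so reads may be split between them and single-gene values are uncertain.

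The libraries that stand apart carried part of the histone difference. Averaged over members and centred on each gene's own mean, the list lay at 0.18, 0.19, 0.11 and 0.21 in COC replicates 1 to 4. In IVO replicates 1 to 4 it lay at -0.31, -0.18, -0.25 and 0.04. Without IVO replicates 1 and 3 the median was 0.21 against -0.01 over all genes, with 17 members higher (36.2% against 3.3% of all genes) and 1 lower at an unadjusted p under 0.05.

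**Figure D3:**
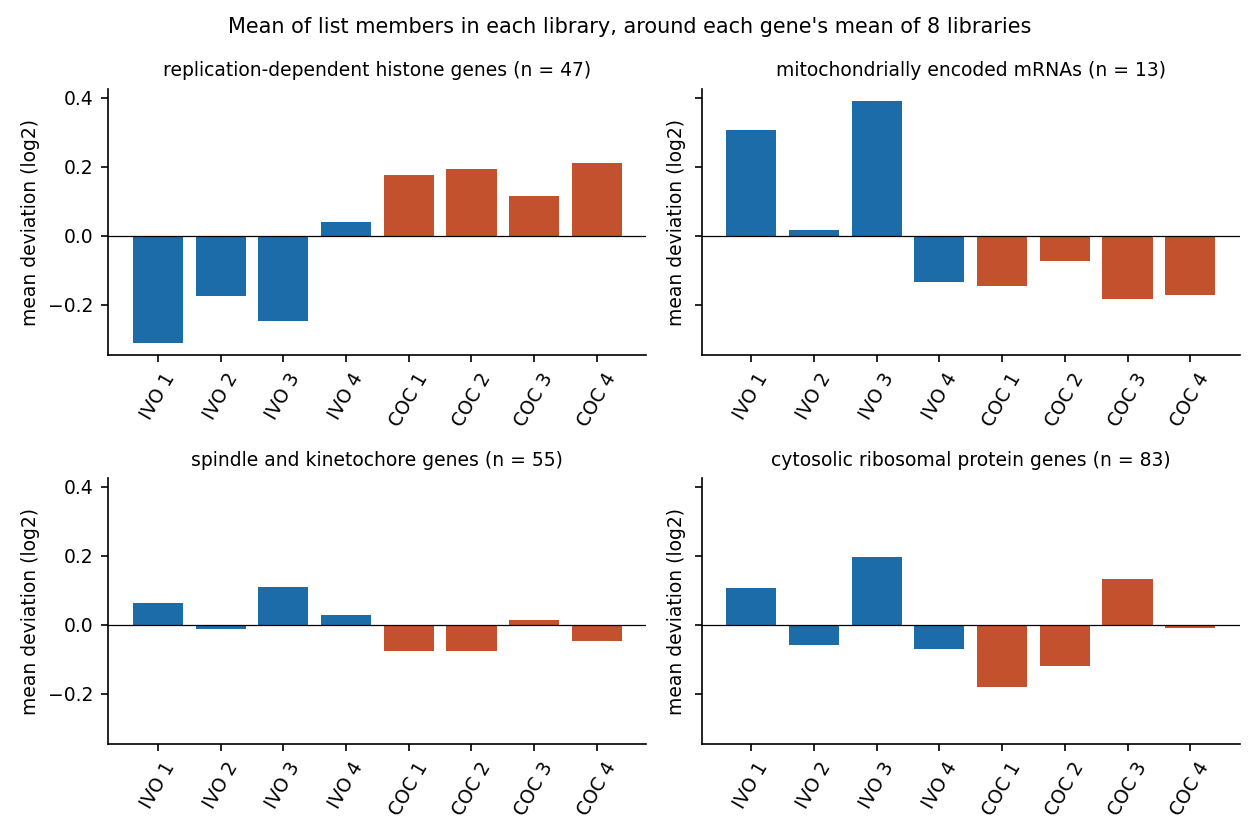
Bars give, for each of 8 libraries, the mean over a list's members of the log2(RPKM + 1) deviation from each gene's mean of the 8 libraries. Histone genes lie above 0 in all 4 COC libraries, and mitochondrially encoded mRNAs lie highest in IVO replicates 1 and 3, at 0.30 and 0.39.

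Mitochondrially encoded mRNAs lay lower in COC. They encode core subunits of the respiratory chain and ATP synthase, and all 13 were listed. The median log2 fold change was -0.28, and 12 of 13 were negative. At an unadjusted limma p under 0.05, 5 were lower (38.5% against 2.96% of all genes) and 0 higher, and 3 had no overlap between groups, all lower (23.1% against 2.15% of all genes). None passed the adjusted limma test, and the authors' deposited p-values, adjusted here, called 1 of them, mt-Atp6 (0.007). mt-Atp6, an ATP synthase subunit, stood at 547, 620, 623 and 610 RPKM in COC and at 1217, 729, 1279 and 703 RPKM in IVO. IVO replicates 1 and 3 were high, and replicates 2 and 4 lay closer to COC. Its log2 fold change was -0.66 ± 0.20 with all libraries (limma adjusted p = 0.659) and -0.26 ± 0.09 without IVO replicates 1 and 3. Without them the list median was -0.07, with 2 members lower (15.4% against 3.66% of all genes) and 0 higher. Averaged over members and centred on each gene's mean, COC libraries lay at -0.18 to -0.07. IVO replicate 2 lay at 0.02, and IVO replicate 4, at -0.14, lay within the COC range. The summed level was 3460 to 3698 RPKM in COC and 3554 to 5523 RPKM in IVO libraries, so the groups overlapped. mt-Atp6 shares bases with mt-Atp8 and mt-Co3 on the same strand.

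Spindle and kinetochore genes lay slightly lower in COC. They build the acentriolar spindle of the oocyte and hold chromosomes to it. Of 56 genes 55 were listed, with a median log2 fold change of -0.07, and 11 were lower (20% against 2.96% of all genes) and 1 higher (1.82% against 4.12%) at an unadjusted limma p under 0.05. Cenpe, the kinetochore motor, stood at 57.9, 54.5, 68.5 and 54.0 RPKM in COC and 101, 80.1, 98.7 and 82.9 RPKM in IVO. The groups did not overlap, and the log2 fold change was -0.62 ± 0.11 (limma adjusted p = 0.300), or -0.47 ± 0.10 without IVO replicates 1 and 3. Ckap5, a microtubule polymerase, stood at 34.8, 35.6, 34.5 and 32.6 RPKM in COC and at 44.6, 47.2, 47.1 and 48.6 RPKM in IVO. Its log2 fold change was -0.44 ± 0.06 (adjusted p = 0.122), and it was -0.47 ± 0.06 without IVO replicates 1 and 3. Others lower at an unadjusted p under 0.05 were the pericentrin gene Pcnt, at 111 ± 2.61 against 132 ± 11.4, and the checkpoint kinase gene Bub1b, at 584 ± 46.8 against 707 ± 52.7 RPKM. Without IVO replicates 1 and 3 the list median was -0.06, with 8 members lower (14.5% against 3.66% of all genes) and 2 higher (3.64% against 3.3%). Averaged over members and centred on each gene's mean, COC libraries lay at -0.08 to 0.01 and IVO libraries at -0.01 to 0.11. COC replicate 3, at 0.01, lay above IVO replicate 2, at -0.01, so the groups overlapped. The summed level was 3087 to 3446 RPKM in COC and 3286 to 3817 RPKM in IVO libraries. The authors' deposited p-values, adjusted here, called Cenpe (0.003) and Ckap5 (0.0479).

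Exonic length moved with these differences. Lengths were at hand for 10972 of 10981 genes. In the shortest of 10 length classes 97 were higher and 33 lower at an unadjusted limma p under 0.05, and in the longest 20 were higher and 89 lower. The median log2 fold change ran from 0.04 to -0.02 between them, and from 0.05 to -0.06 without IVO replicates 1 and 3. H2ac13 and H4c8 have 393 and 470 exonic bases. Ckap5, Cenpe and Pcnt have 9462, 8620 and 12154, and Flna, which lay higher, has 9400. The part of length in the list differences was not tested list by list, and after the length trend of each library was removed Flna was still called (adjusted p = 0.003).

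**Figure D4:**
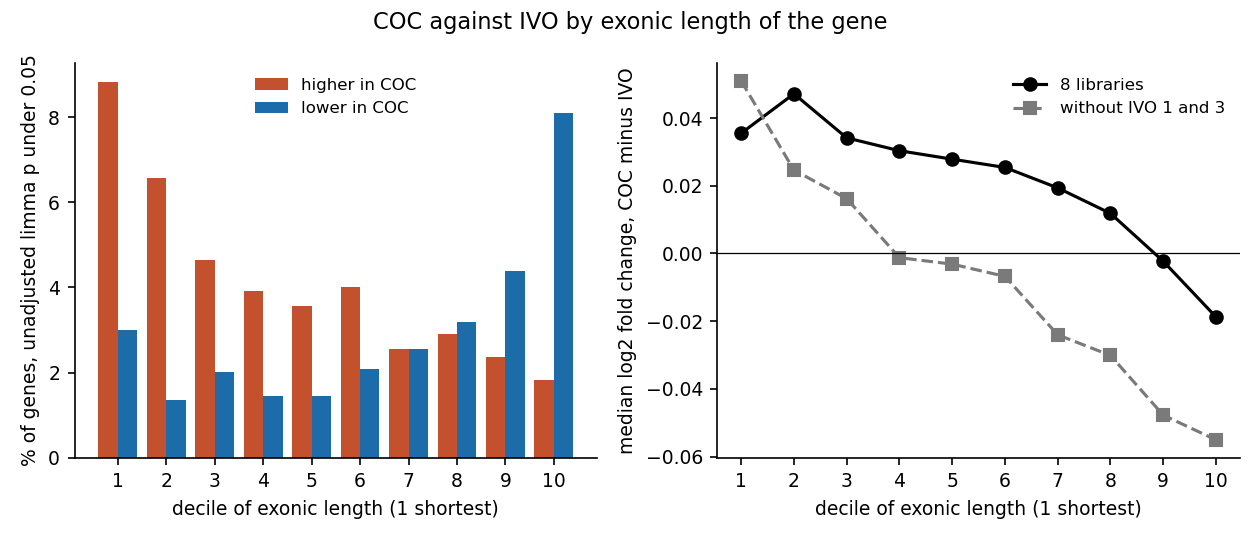
The left panel gives the percentage of genes at an unadjusted limma p under 0.05, higher or lower in COC, in each of 10 classes of exonic length; the right panel gives the median log2 fold change with all 8 libraries and without IVO replicates 1 and 3. Higher genes go from 8.83% in the shortest class to 1.82% in the longest, and lower genes reach 8.11% in the longest.

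Other single genes with large differences did not pass the adjusted limma test, but several had groups that did not overlap. Rilpl1, a RILP-like adaptor of cilia and lysosomes, stood at 6.80, 7.07, 9.76 and 17.7 RPKM in COC and at 2.53, 1.28, 2.02 and 1.51 RPKM in IVO. Its log2 fold change was 1.92 ± 0.26 (limma adjusted p = 0.122). IVM oocytes held 10.5 ± 2.68 RPKM, and COC minus IVM was -0.08 (adjusted p = 0.999). Tnfsf10, the death ligand TRAIL, stood at 1.65, 3.42, 3.04 and 4.87 RPKM in COC and at 0.679, 0.542, 0.769 and 0.718 RPKM in IVO, a log2 fold change of 1.29 ± 0.20 (adjusted p = 0.185). IVM oocytes held 3.24 ± 1.56 RPKM. Of its list of death ligands, receptors and BCL2 family genes, 15 of 27 were listed. Tnfsf10 was the 1 member at an unadjusted limma p under 0.05 (6.67% higher against 4.12% of all genes). Tex19.2, a germ cell gene, stood at 0.858 to 4.53 RPKM in COC and 0.323 to 0.625 RPKM in IVO. These IVM and COC differences from IVO share the same IVO libraries.

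Cdc5l, a core splicing factor, had the highest log2 fold change among named genes with no overlap, and its IVO libraries split. It stood at 31.0, 21.5, 52.4 and 48.2 RPKM in COC and at 17.9, 0.338, 18.2 and 0.622 RPKM in IVO. IVO replicates 2 and 4 were near the listing minimum, and replicates 1 and 3 were not. The log2 fold change was 2.81 ± 0.88 (limma adjusted p = 0.659), and it became 4.65 ± 0.31 (adjusted p = 0.00259) against IVO replicates 2 and 4 alone. That fit was chosen after seeing the data and leaves out the IVO libraries in which Cdc5l was high. Its adjusted p is therefore no support for a difference between the groups. On polysomes the 4 IVO libraries held 18.8, 17.7, 33.3 and 22.8 RPKM.

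The authors' deposited table gave more calls. Its p-values, adjusted here by Benjamini-Hochberg, put 18 genes higher (0.164%) and 10 lower (0.0911%). All 28 had the same sign in limma, and 7 were histone genes. An unadjusted limma p under 0.05 was found in 27, against 4.12% of all genes higher and 2.96% lower. No overlap between groups was found in 22, against 2.25% of all genes higher and 2.15% lower. The 28 genes were picked by a test of the same libraries, so these counts are not independent of it. Flna led, with the authors' log2 fold change at 1.66 and an adjusted p of 3.2e-23. Among the lower genes of the authors' deposited table was Cep250, a centrosome protein gene, at 10.1 ± 3.17 against 16.3 ± 2.69 RPKM here. Btn1a1 and Lypd3 were also lower there, and both varied widely between IVO libraries, from 2.46 to 13.1 RPKM and from 0.689 to 13.7 RPKM. The mitochondrially encoded mt-Atp6 was lower in the authors' deposited table too, as were Cenpe, Ckap5, Evc and Fam135a. Higher genes there, beside the histone genes, Flna, Plec, Tes, Grem1, Rilpl1, Tnfsf10 and Tex19.2, were Hmga1b, Tead2, Srgn and Ccdc3. Hmga1b, a chromatin protein gene with a near-identical relative, stood at 30.2 ± 0.978 against 17.8 ± 3.76 RPKM. The ribosomal protein genes Rps21 and Rps26 were lower there, and their RPKM were 36.1 ± 10.3 against 59.5 ± 16 and 45.9 ± 10.3 against 70.9 ± 18.6. Their log2 fold changes here were -0.71 and -0.60 with all libraries, and -0.41 and -0.27 without IVO replicates 1 and 3.

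Named genes that lay lower without overlap had differences of varied size. Dph7, which takes part in making the diphthamide of elongation factor eEF2, stood at 1.82, 1.17, 1.43 and 1.66 RPKM in COC and at 1.96, 2.67, 2.91 and 2.82 RPKM in IVO. Its log2 fold change was -0.51 ± 0.11, with a limma adjusted p of 0.530. Golgb1, the Golgi protein giantin, stood at 22.9 to 24.8 RPKM in COC. In IVO it stood at 38.2 and 39.6 RPKM in replicates 1 and 3 and at 27.2 and 27.4 RPKM in replicates 2 and 4. Prrc2c, an RNA-binding protein of stress granules, showed the same split, with 77.3 and 70.9 RPKM in IVO replicates 1 and 3 and 56.4 and 53.5 RPKM in replicates 2 and 4. Its COC libraries held 44.6 to 48.8 RPKM. Without IVO replicates 1 and 3 the log2 fold change went from -0.43 to -0.19 for Golgb1 and from -0.46 to -0.25 for Prrc2c. Fam135a stood at 3.44 ± 0.368 against 5.09 ± 0.797 and Fam162b at 1.87 ± 0.341 against 2.98 ± 0.388 RPKM. Evc, a cilium protein of hedgehog signalling, stood at 0.466 ± 0.0973 against 0.877 ± 0.237 RPKM.

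Chromatin regulators and signalling receptors held a few members at an unadjusted limma p under 0.05. Of 44 chromatin regulators 41 were listed, with a median log2 fold change of -0.03, and 3 were lower (7.32% against 2.96% of all genes) and 0 higher. Among them were the remodelling ATPase genes Chd7, at 38.9 ± 3.95 against 49.4 ± 3.19, and Chd4, at 83.3 ± 2.70 against 103 ± 12.7 RPKM. Without IVO replicates 1 and 3 the list had 6 lower (14.6% against 3.66% of all genes) and 1 higher, and Chd4 went from -0.30 to -0.15 on the log2 scale. Of 19 oocyte-secreted factors and their receptors 18 were listed, with 2 higher (11.1% against 4.12% of all genes) and 1 lower, and with 0 higher and 1 lower without IVO replicates 1 and 3. Fgf8, which drives cumulus glycolysis, stood at 116 ± 6.65 against 96.9 ± 16.1, and the BMP receptor gene Bmpr1a at 9.01 ± 0.751 against 7.53 ± 0.920 RPKM. The activin receptor-like kinase gene Acvr1 stood at 2.26 ± 0.263 against 2.88 ± 0.329 RPKM. Without those libraries the log2 fold change went from 0.27 to 0.07 for Fgf8, from 0.23 to 0.11 for Bmpr1a and from -0.25 to -0.15 for Acvr1. In the list on cyclic nucleotide control of arrest 3 of 19 listed members were higher (15.8% against 4.12% of all genes), and 1 higher and 1 lower without IVO replicates 1 and 3. They were Cdk1, the M-phase kinase gene, at 13.3 ± 0.670 against 11.6 ± 0.325, its phosphatase gene Cdc25c, at 3.74 ± 0.302 against 3.07 ± 0.414, and the G protein gene Gnas, at 17.1 ± 1.39 against 14.3 ± 2.18 RPKM. Without those libraries Cdk1 had a log2 fold change of 0.20, Cdc25c of 0.11 and Gnas of 0.08. Among contact genes the tight junction gene Tjp1 stood at 38.4 ± 1.75 against 44.8 ± 2.03 and the tetraspanin gene Cd81 at 0.422 ± 0.0933 against 0.578 ± 0.0375 RPKM. None of these passed the adjusted limma test.

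No ribosomal protein gene passed the adjusted limma test, while the authors' deposited p-values, adjusted here, called Rps21 (0.0415) and Rps26 (0.0479). Over the 83 cytosolic members the median log2 fold change was -0.06, with 1 higher (1.2% against 4.12% of all genes) and 8 lower (9.64% against 2.96%) at an unadjusted limma p under 0.05. The median was 0.02 without IVO replicates 1 and 3, with 6 higher (7.23% against 3.3% of all genes) and 2 lower (2.41% against 3.66%). The 76 mitochondrial ribosomal protein genes had a median of 0.03, with 6 higher (7.89% against 4.12% of all genes) and 0 lower, and with 1 higher and 0 lower without IVO replicates 1 and 3. Mrps11 stood at 6.20 ± 0.662 against 4.54 ± 1.04 RPKM, a log2 difference of 0.39 that was 0.18 without those libraries.

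None of the stored mRNAs named next passed the adjusted limma test. Ccnb1, cyclin B1, stood at 235 ± 8.60 against 230 ± 16.3 RPKM, and the kinase gene Mos at 147 ± 10.3 against 135 ± 27.9 RPKM. Btg4, the adaptor of maternal mRNA decay, stood at 663 ± 47.4 against 667 ± 69.9 RPKM. The oocyte growth factor Gdf9 stood at 1298 ± 58.2 against 1191 ± 122 and the zona protein gene Zp3 at 230 ± 25 against 280 ± 48.6 RPKM. Dppa3, a maternal factor that protects methylation, stood at 598 ± 62.5 against 571 ± 43.0 RPKM. Nlrp5 of the subcortical maternal complex stood at 215 ± 24.4 against 265 ± 37.9 RPKM, the 1 oocyte marker at an unadjusted limma p under 0.05, and 0 of the 22 were at that level without IVO replicates 1 and 3. Over the 35 listed maturation-activated mRNAs the median log2 fold change was -0.01, with 4 lower (11.4% against 2.96% of all genes) and 0 higher. Without IVO replicates 1 and 3 there were 3 lower (8.57% against 3.66% of all genes).

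In the remaining lists no gene passed the adjusted limma test, and the authors' deposited p-values, adjusted here, called Tnfsf10 (1.79e-19) among death genes. Medians lay between -0.06 and 0.07 for maternal mRNA storage and decay, the subcortical maternal complex, oocyte-secreted factors, cyclic nucleotide control of arrest, contact and gap junction genes and chromatin regulators. The same range held glycolysis, cholesterol, antioxidant, unfolded protein, heat shock, immediate early, interferon, translation initiation, PRAME-like, Zfp and nuclear-encoded mitochondrial expression genes. Death genes had a median of 0.07. Some of these lists differed without IVO replicates 1 and 3. Heat shock genes went from a median of -0.06, with 0 higher, to 0.14. There 3 of 17 were higher at an unadjusted limma p under 0.05 (17.6% against 3.3% of all genes). Antioxidant genes went from 2 higher and 1 lower to 3 higher (13% against 3.3% of all genes) and 0 lower of 23. In 7 of these genes every COC library lay above IVO replicates 2 and 4 (30.4% against 8.18% of all genes). Maternal mRNA storage and decay genes went from 0 to 4 lower of 35 (11.4% against 3.66% of all genes). Few markers of other cells were listed, and an unlisted marker may still be present in either group. Of 14 theca, stroma and smooth muscle markers 1 was listed, Myh11, at 72.7 ± 7.03 in COC and 101 ± 25.1 RPKM in IVO, with IVO replicates 1 and 3 highest. Of 16 blood markers 3 were listed, with a median of -0.02, and of 10 sperm markers 2, with a median of -0.07 that was 0.22 without IVO replicates 1 and 3.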

How the data were processed

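Total RNA libraries were made with a stranded pico-input kit, per the labels' protocols. DRAGEN, without a version, and build GRCm39 are named in the submitters' processing notes, and how reads were counted, on which strand and with which annotation is not given in the sources used here. Per the file headers, the authors deposited RPKM per gene and library, and their log2 fold change and p-value per gene. Samples were grouped by their labels. The values, as log2(RPKM + 1), went into limma (version 3.58.1, R 4.3.3) with a variance trend and no covariate. Each main test used 1 table, the interaction joined both fractions, and 1 alternative joined all 12 total RNA libraries. A library's RPKM values were the same in each total RNA table compared. The calling threshold was 0.05 after Benjamini-Hochberg adjustment over all genes. Members and the 31 lists were chosen with earlier results of these data known. Named genes were those called, the 10 highest and 10 lowest log2 fold changes at an unadjusted p under 0.05 without overlap (predicted and clone names left out), those with an adjusted authors' p under 0.05, up to 4 per list, and a fixed set (Flna, Nlrp5, Dppa3, Zp3, Gdf9, Btg4, Mos, Ccnb1). H1f1, Cyp19a1 and Krt8 were named after their values were seen. Some genes that the rule takes are left out of the text. Exonic lengths came from GENCODE M21, an older build, for lengths and overlaps only. In the depth recovery 79.7% to 84.6% of low values lay within 0.1 of a whole read, and 8 of 8 simulated libraries came out within 1%. Polysomal depth was not recovered here. Alternatives were scaling, pseudocount, filters, weights, the replicate block and left-out libraries.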

Additional observations from a re-analysis of the deposited data

Results flagged for a closer look

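In 16 of 168 groups of 4 libraries examined (9.52%, where chance gives about 1 in 20), 1 library stood far from the other 3 in RPKM. COC replicate 3 was highest for Btg4 at 734, Bub1b at 654, Tpx2 at 75.8 and Prdx5 at 16.8, and lowest for Bmpr1a at 7.90 and Lrpprc at 18.3. COC replicate 1 was lowest for Actb at 33.6 and mt-Atp6 at 547, and highest for Pdk1 at 2.28. COC replicate 2 was lowest for Ccdc3 at 4.17 and Cd81 at 0.282, and highest for H4c8 at 43.7. COC replicate 4 was highest for Mos at 162. IVO replicate 4 was highest for H4c8 at 27.3 and Jund at 16.9, and IVO replicate 1 for Mvd at 3.65. The cause was not tested.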

How the results depend on the processing

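Flna stayed called, with its log2 fold change positive, under every alternative but the 2 that drop IVO replicates 1 and 3 together, which were chosen after seeing the data. The count of higher genes was 2 with the replicate block (Flna and H4c6), 3 in a fit of all 12 oocyte libraries (Flna, Plec and Rilpl1), 18 by the authors' p and 1 to 2 with 1 library left out. The added calls were Tnfsf10 without COC replicate 1, Rilpl1 without COC replicate 4 and H4c8 without IVO replicate 4. The count of lower genes was 1 with 12 libraries (Ckap5), 10 by the authors' p and 1 without IVO replicates 1 and 3 and COC replicate 3 (Cenpe). Cdc5l was called higher in both fits without IVO replicates 1 and 3. At an unadjusted p under 0.05 the counts were 741 higher and 548 lower with the replicate block, and 249 to 734 higher and 167 to 540 lower with 1 library left out. The interaction gave 0 to 1 with 1 library left out, and COC against IVM gave 1 with the replicate block. The labels do not say whether COC and IVO libraries of the same replicate number belong together. Deviations of same-numbered libraries correlated at -0.18, 0.37, 0.66 and 0.32, and 2 of 4 matched their own number best. Whether same-numbered libraries share a batch was not tested. Some log2 fold changes near 0 changed sign. With 1 library left out, Btg4 ran from -0.0555 to 0.0523, Ccnb1 from -0.00437 to 0.0734 and Dppa3 from -0.00162 to 0.12. Btg4 gave 0.12 without IVO replicates 1 and 3 and 0.0692 without COC replicate 3 as well. Ccnb1 gave -0.00935 by the authors' table, and Mos -0.11 and -0.0882 in the fits without IVO replicates 1 and 3. The causes were not tested. Over single genes and settings, 1707 values kept their sign and side of the threshold, and 37, in 28 genes, newly passed it. Genes under the listing minimum in any library were not seen, and the number of reads behind genes near it limits their precision.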

Other observations

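Elp6, an Elongator subunit gene chosen after its values were seen, split the IVO libraries the opposite way to Cdc5l. It stood at 2.41 and 2.15 RPKM in IVO replicates 1 and 3 and at 4.77 and 5.18 RPKM in replicates 2 and 4. The COC libraries held 5.24 to 7.10 RPKM, above all 4. Eif3j1, a translation initiation factor gene, stood at 8.30 and 8.96 RPKM in IVO replicates 1 and 3, at 2.12 and 3.01 RPKM in replicates 2 and 4, and at 1.44 to 3.65 RPKM in COC.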
